A study of Mus musculus with 12 samples.

Results

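The Bcl2 family decides whether mitochondria release the factors that start cell death. Measured here were its members Bcl2, Bcl2l1, Mcl1, Bax, Bak1, Bid, Bnip3, Bnip3l, Bcl2l11 and Bbc3, in left ventricles of mice that carry a tamoxifen-activated form of the stress factor ATF6. Members were found by gene symbol in the platform annotation: 27 of the 45037 probe sets that are not controls carry 1 member symbol alone, for 8 genes of the 18193 with a probe set. Another 3 probe sets are annotated to both Bnip3l and its pseudogene Bnip3l-ps, whose signals cannot be told apart there, and they are given apart from the rest. No probe set used here was annotated to Bax, which was not analysed here.

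The study compared 4 groups of 3 male C57BL/6 mice, each heart hybridised alone to an Affymetrix oligonucleotide array of the mouse transcriptome. TG tamoxifen mice carried the ATF6-MER transgene and were given tamoxifen, TG vehicle mice carried it and were given vehicle, and NTG tamoxifen and NTG vehicle mice were littermates without it. ATF6-MER fuses ATF6, which switches on genes when proteins misfold in the endoplasmic reticulum (ER), to a mutant estrogen receptor domain that tamoxifen activates. The sources used here do not give the promoter that drives the transgene, the number of lines, or the dose and length of treatment. The mice were about 30 weeks old, except that TG tamoxifen 1 is labelled as 40 weeks.

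Cardiomyocytes divide little after birth, so their loss is hardly made good, and the family has long been studied in heart injury. Bcl2, Bcl2l1 (Bcl-xL) and Mcl1 hold the effectors Bax and Bak1 in check, and loss of Mcl1 from mouse heart muscle is known to cause heart failure. BH3-only proteins such as Bcl2l11 (Bim), Bbc3 (Puma) and Bid bind and block the protective members or activate the effectors. Bnip3 and Bnip3l (Nix) sit in the outer mitochondrial membrane and mark mitochondria for autophagy.

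The labels or the signals conflicted for several arrays. TG vehicle 3 is vehicle by its title and tamoxifen by its treatment field, and was grouped by its title. NTG tamoxifen 1 went against its NTG label: Esr1, the estrogen receptor gene, read 17.72 there on the log2 scale, against 16.67 to 18.26 on the 6 TG arrays and 7.16 to 10.88 on the other NTG arrays. The ER chaperone Hspa5, a known ATF6 target, read 18.06 on NTG tamoxifen 1, against 18.38 to 18.49 on the TG tamoxifen arrays and 15.49 to 16.39 on the rest. Every comparison of the family's single probe sets that uses the library labelled NTG tamoxifen 1 was therefore also made without it. TG vehicle 3 read 15.94 for Hspa5, between the 15.76 and 16.39 of the other TG vehicle arrays. The 3′ to 5′ ratio of the beta-actin control, a measure of RNA integrity, was 1.75 to 1.88 on TG tamoxifen arrays, 1.32 to 1.68 on TG vehicle arrays, 1.78 to 1.97 on NTG tamoxifen arrays and 2.12 to 2.43 on NTG vehicle arrays.

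Levels below are log2(intensity + 16) after quantile normalization, and each difference is the first group named minus the second, on that scale. A probe set was called at a Benjamini-Hochberg adjusted p under 0.05 from limma, over the 22519 probe sets whose mean lay above the 50th percentile. Of the 27 probe sets of the family, 21 were tested: 6 of 6 for Mcl1, 5 of 5 for Bcl2, 5 of 5 for Bcl2l11, 2 of 4 for Bcl2l1, 1 of 2 for Bak1, 1 of 1 for Bbc3, 1 of 1 for Bnip3 and 0 of 3 for Bid. Probe sets of a gene share their RNA and are not replicates, and the level of one probe set cannot be set against that of another. In bulk tissue, fewer cells of a type and less RNA per cell cannot be told apart.

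Tamoxifen in TG hearts was accompanied by lower signal for Mcl1 and Bcl2l11 and higher signal for Bcl2. In TG tamoxifen against TG vehicle, 4 of the 21 probe sets (19.0%) were lower, 3 of Mcl1 and 1 of Bcl2l11, where 9.81% of all tested probe sets were. Only 1 (4.76%), of Bcl2, was higher, where 8.54% of all were. The 3 Mcl1 probe sets read 1 gene, so the lower calls cover 2 genes of 7 tested, and no excess over the background is read from them. Without TG vehicle 3 limma called 1 of 21, and without TG tamoxifen 1 it called 0, with 9 at an unadjusted p under 0.05. With TG vehicle 3 grouped as TG tamoxifen it called 0, with 1 at an unadjusted p under 0.05, and called 2 of all 22519 probe sets. For 13 of the 21 probe sets (61.9%), of 5 genes, every TG tamoxifen array lay on 1 side of every TG vehicle array, against 40.7% of all tested probe sets. Without NTG tamoxifen 1 in the fit, 6 of the 21 were called, 1 higher and 5 lower, where 22.7% of all were called in either direction. The median difference was −0.18 over the family's tested probe sets and −0.03 over all tested probe sets.

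**Figure D1:**
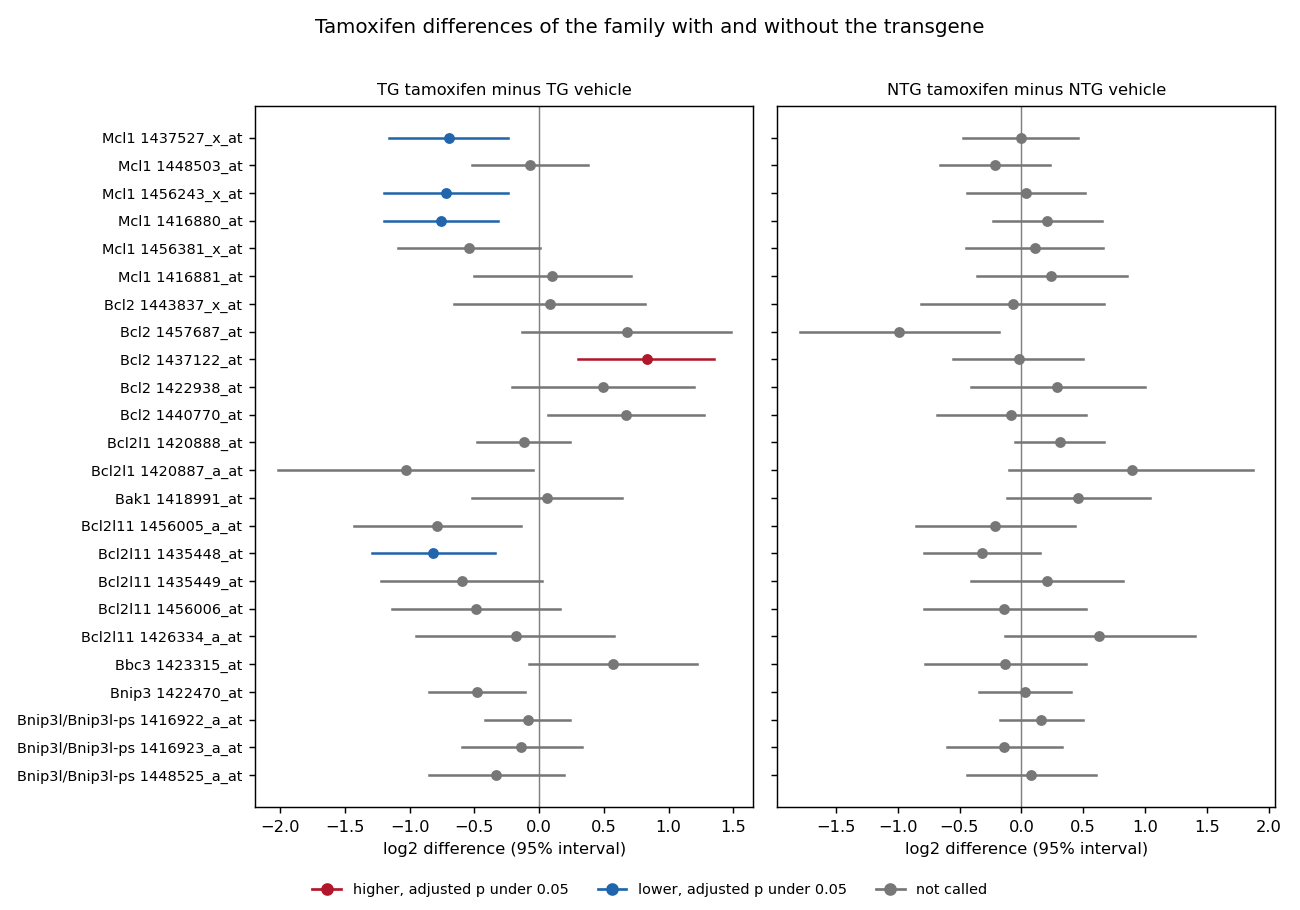
Log2 difference with its 95% interval for each tested probe set of the family and the 3 shared Bnip3l probe sets, in TG tamoxifen against TG vehicle (left) and NTG tamoxifen against NTG vehicle (right). On the left 4 probe sets of Mcl1 and Bcl2l11 are marked lower and 1 of Bcl2 higher, and on the right none is called.

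Mcl1, a short-lived protective member that binds Bak1 and Bim, held most of the family's calls. The probe set 1416880_at read 13.61, 13.69 and 13.42 on the TG tamoxifen arrays, against 14.26, 14.41 and 14.34 on the TG vehicle arrays. Its NTG tamoxifen arrays read 14.32, 14.65 and 15.02 and its NTG vehicle arrays 14.58, 14.56 and 14.22. All 3 TG tamoxifen hearts thus lay below each of the other 9 arrays. The difference from TG vehicle was −0.76 ± 0.20 (SE, 3 arrays each), 1.69-fold lower, with an adjusted p of 0.0245 from limma.

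A second Mcl1 probe set, 1437527_x_at, read 14.83, 14.80 and 14.90 on TG tamoxifen arrays against 15.53, 15.49 and 15.60 on TG vehicle arrays. Another, 1456243_x_at, read 14.36, 14.37 and 14.38 on TG tamoxifen arrays against 15.06, 15.07 and 15.15 on TG vehicle arrays. Neither pair of groups overlapped, and within each group the arrays lay close together. They fell by 0.70 ± 0.21 and 0.72 ± 0.22 on the log2 scale, with limma adjusted p of 0.0401 and 0.0407. On these the NTG vehicle arrays read 15.41, 15.37 and 15.41 for 1437527_x_at and 14.91, 14.87 and 14.97 for 1456243_x_at. The TG vehicle arrays lay above these, by differences of 0.14 and 0.17 that were not called.

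The other Mcl1 probe sets differed from these. On 1456381_x_at the TG tamoxifen arrays read 13.86, 13.68 and 13.94 against 14.35, 14.14 and 14.61 on TG vehicle arrays, without overlap, and the difference of −0.54 ± 0.25 was not called (limma adjusted p 0.156). On 1448503_at the groups overlapped and the difference was −0.07, with a 95% interval of −0.52 to 0.38. On 1416881_at it was 0.10, with an interval of −0.50 to 0.71. The intervals of this pair and of 1416880_at overlap, and their disagreement was not tested. When all 6 probe sets were averaged per array, Mcl1 differed by −0.45 ± 0.17 in TG tamoxifen against TG vehicle and missed the threshold (limma adjusted p 0.0793), as an added analysis chosen after the values were seen. The call for 1416880_at was lost without TG tamoxifen 1, 2 or 3 or TG vehicle 2 or 3, at limma adjusted p of 0.0689, 0.0516, 0.0812, 0.0712 and 0.0576. The calls for 1437527_x_at and 1456243_x_at were lost without any 1 of the 6 TG arrays or 3 NTG vehicle arrays. Their differences without a TG array were −0.73 to −0.67 for the first and −0.74 to −0.69 for the second. Without NTG tamoxifen 1 in the fit, 1416880_at, 1437527_x_at and 1456243_x_at stayed called, at limma adjusted p of 0.0109, 0.00577 and 0.0047.

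**Figure D2:**
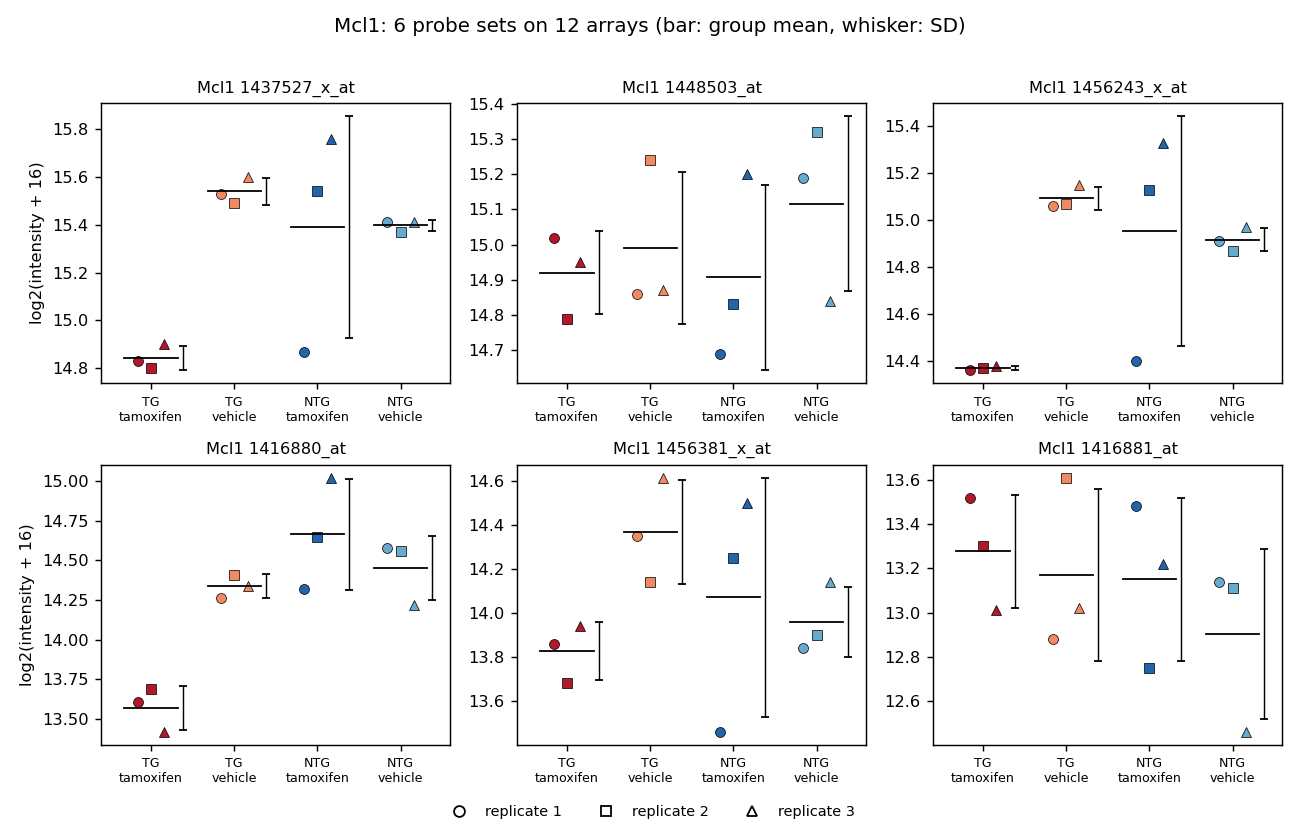
Level of the 6 Mcl1 probe sets, log2(intensity + 16), on each of the 12 arrays by group; points are hearts, the bar is the group mean and the whisker the SD (3 arrays each). On 1416880_at the TG tamoxifen hearts lie at 13.42 to 13.69, below the 14.22 to 15.02 of the other 9, while on 1448503_at and 1416881_at the groups overlap.

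Bcl2, the founding protective member, which acts at mitochondria and at the ER, went the other way. On 1437122_at the TG tamoxifen arrays read 10.36, 10.05 and 10.29 and the TG vehicle arrays 9.42, 9.43 and 9.36. The TG tamoxifen hearts were each above every TG vehicle heart. Bcl2 on this probe set rose by 0.83 ± 0.24, 1.78-fold, with a limma adjusted p of 0.0343. Its call was lost without any 1 of the 6 TG arrays, at adjusted p of 0.0578 (without TG tamoxifen 2) to 0.111 (without TG tamoxifen 1), and the difference then lay between 0.77 and 0.92. The call was kept without NTG tamoxifen 1 in the fit (limma adjusted p 0.0208).

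The NTG hearts place that difference. NTG tamoxifen arrays read 10.37, 10.50 and 11.35 and NTG vehicle arrays 10.68, 10.94 and 10.67 on 1437122_at, so the TG vehicle hearts were the low group and the TG tamoxifen hearts lay below each NTG heart. TG vehicle was lower than NTG vehicle by −1.36 ± 0.24 (limma adjusted p 0.0139). The 4 other Bcl2 probe sets also had positive differences in TG tamoxifen against TG vehicle, from 0.08 to 0.68, and none was called. Of these, 1440770_at read 9.14, 9.94 and 9.47 in TG tamoxifen against 8.75, 8.90 and 8.88 in TG vehicle. 1457687_at read 10.93, 10.86 and 10.68 in TG tamoxifen against 10.38, 9.78 and 10.28 in TG vehicle. Both were without overlap, with limma adjusted p of 0.111 and 0.218, and the probe-set mean of Bcl2 differed by 0.55 ± 0.21 (adjusted p 0.0725, added after the values were seen).

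Bcl2l1 encodes Bcl-xL, the protective splice form, and a shorter form that promotes death, and its probe sets were not assigned to a form. On 1420888_at TG tamoxifen arrays read 11.86, 11.85 and 11.96 against 11.87, 12.01 and 12.14 on TG vehicle arrays, and the ranges overlapped. The difference was −0.12, with a 95% interval of −0.48 to 0.24. On 1420887_a_at TG tamoxifen arrays read 10.66, 10.19 and 8.60 against 10.56, 11.45 and 10.54 on TG vehicle arrays. TG tamoxifen 3 lay far below the others there, and the difference of −1.03 ± 0.45 was not called (limma adjusted p 0.129). The remaining Bcl2l1 probe sets, 1426191_a_at and 1426050_at, were below the filter, with ranges of 6.80 to 9.52 and 5.91 to 8.62 over the 12 arrays. With no filter their differences in TG tamoxifen against TG vehicle had opposite signs, −1.51 and 1.04 (limma adjusted p 0.224 and 0.472). The TG groups did not overlap on 1426191_a_at and overlapped on 1426050_at.

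**Figure D3:**
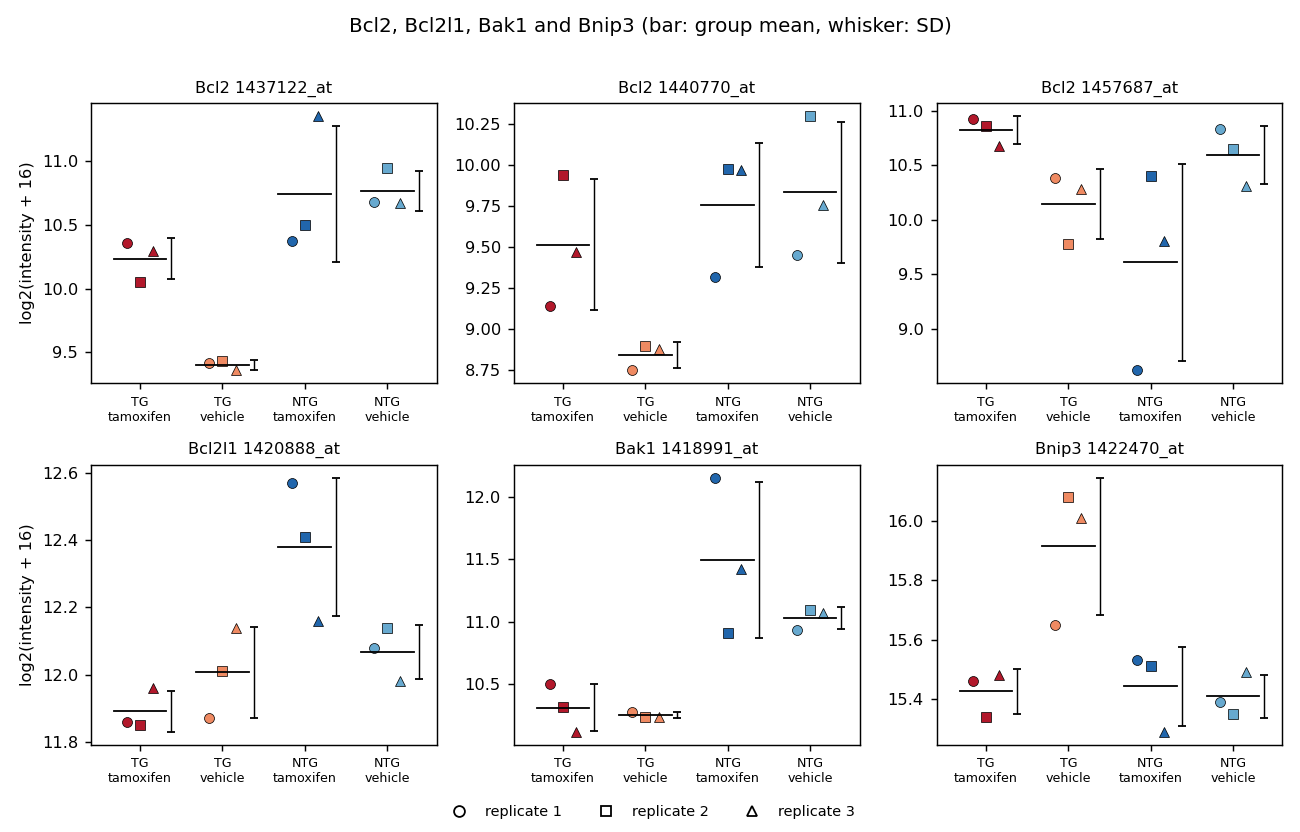
Level, log2(intensity + 16), of 3 Bcl2 probe sets and 1 probe set each of Bcl2l1, Bak1 and Bnip3 on every array by group; points are hearts, the bar is the group mean and the whisker the SD (3 arrays each). Bcl2 1437122_at is lowest in TG vehicle at 9.36 to 9.43, Bak1 is low in both TG groups, and Bnip3 is highest in TG vehicle at 15.65 to 16.08.

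Bak1, the effector that forms pores in the outer mitochondrial membrane, did not separate by tamoxifen in TG hearts. On 1418991_at TG tamoxifen arrays read 10.50, 10.32 and 10.12 against 10.28, 10.24 and 10.24 on TG vehicle arrays, a difference of 0.06 with a 95% interval of −0.52 to 0.64. It did separate by the labelled genotype. NTG tamoxifen arrays read 12.15, 10.91 and 11.42 and NTG vehicle arrays 10.93, 11.09 and 11.07, above all 6 TG arrays. The highest, 12.15, was on NTG tamoxifen 1, whose Esr1 and Hspa5 levels went against its label. If that heart carried the transgene, Bak1 would not separate by genotype. Bak1 fell in TG tamoxifen against NTG tamoxifen by 1.18 ± 0.26 (limma adjusted p 0.00516), and without NTG tamoxifen 1 by 0.85 ± 0.20 (adjusted p 0.00661). TG vehicle differed from NTG vehicle by −0.78 ± 0.26, adjusted p 0.0983, and without NTG tamoxifen 1 in the fit this was called at an adjusted p of 0.0264. The second probe set, 1425716_s_at, lay below the filter. It read 9.09, 10.56 and 9.24 in TG tamoxifen against 7.06, 7.59 and 8.57 in TG vehicle, without overlap, and with no filter its difference was 1.89 (limma adjusted p 0.104).

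Bcl2l11, the BH3-only protein Bim, a target of FOXO factors that binds every protective member, was lower in TG tamoxifen hearts. The probe set 1435448_at read 11.47, 11.36 and 11.60 on TG tamoxifen arrays against 12.42, 12.43 and 12.04 on TG vehicle arrays. NTG tamoxifen arrays read 11.83, 12.40 and 12.51 and NTG vehicle arrays 12.61, 12.75 and 12.35. The TG tamoxifen hearts lay below all the others, with NTG tamoxifen 1 the nearest. It fell by 0.82 ± 0.22, 1.76-fold, in TG tamoxifen against TG vehicle (limma adjusted p 0.0240). The call was lost without TG tamoxifen 1 or 2 or TG vehicle 1 or 2, at adjusted p of 0.0729, 0.0791, 0.0540 and 0.0758, with differences of −0.81, −0.76, −0.76 and −0.75. The call was kept without NTG tamoxifen 1 in the fit (limma adjusted p 0.00837).

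The other Bcl2l11 probe sets had negative differences too, and with all 12 arrays none of the 4 was called. On 1456005_a_at TG tamoxifen arrays read 12.06, 12.10 and 11.61 against 12.79, 12.56 and 12.78 on TG vehicle arrays, a difference of −0.79 ± 0.29 (limma adjusted p 0.0841). Without NTG tamoxifen 1 in the fit this difference was called (limma adjusted p 0.0146). On 1435449_at TG tamoxifen arrays read 10.12, 10.23 and 10.29 against 10.36, 11.01 and 11.06 on TG vehicle arrays. On 1456006_at TG tamoxifen arrays read 9.98, 10.19 and 10.12 against 10.36, 10.47 and 10.94 on TG vehicle arrays. On these 3 the groups did not overlap, with differences of −0.79, −0.60 and −0.49, while on 1426334_a_at they did (−0.18, 95% interval −0.95 to 0.58). Averaged over its 5 probe sets per array, Bcl2l11 differed by −0.57 ± 0.20 (limma adjusted p 0.0568, added after the values were seen).

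**Figure D4:**
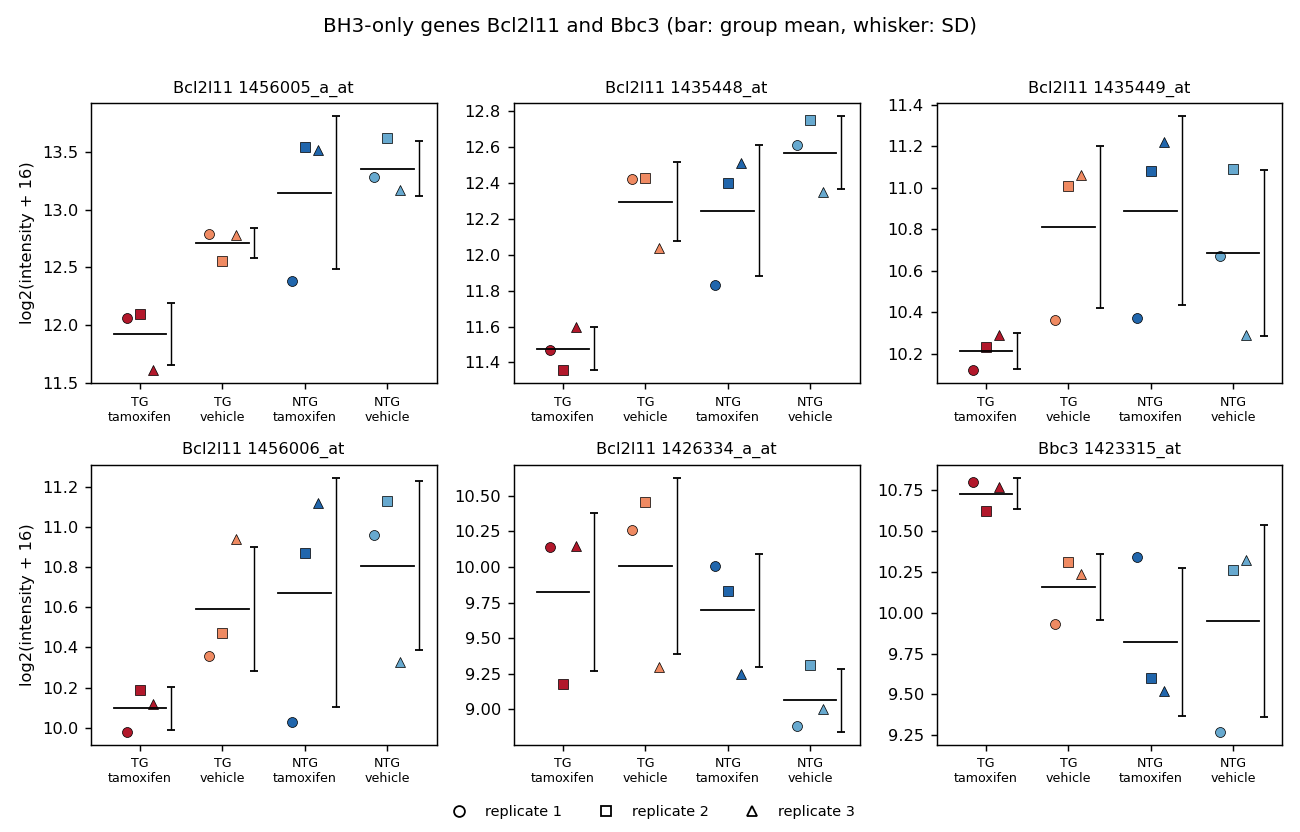
Level, log2(intensity + 16), of the 5 Bcl2l11 probe sets and the Bbc3 probe set on every array by group; points are hearts, the bar is the group mean and the whisker the SD (3 arrays each). On 1435448_at TG tamoxifen hearts lie at 11.36 to 11.60, below the other 9, and for Bbc3 they lie at 10.62 to 10.80, above the other 9.

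Bbc3, the BH3-only protein Puma and a p53 target that CHOP (Ddit3) can also induce, read 10.80, 10.62 and 10.77 on TG tamoxifen arrays against 9.93, 10.31 and 10.24 on TG vehicle arrays. NTG tamoxifen arrays read 10.34, 9.60 and 9.52 and NTG vehicle arrays 9.27, 10.26 and 10.32. The TG tamoxifen hearts were above the other 9, yet the difference from TG vehicle, 0.57 ± 0.30, was not called (limma adjusted p 0.197). Bid, which caspase-8 cleaves to link death receptors to mitochondria, was not tested in the main fit: its 3 probe sets lay below the filter, between 5.49 and 10.06 over all arrays. With no filter their differences in TG tamoxifen against TG vehicle were −0.38, −0.08 and 0.77 (limma adjusted p 0.788, 0.976 and 0.439).

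Bnip3 is a hypoxia-induced mitophagy receptor with a BH3-like stretch. It read 15.46, 15.34 and 15.48 on TG tamoxifen arrays and 15.65, 16.08 and 16.01 on TG vehicle arrays. NTG tamoxifen arrays read 15.53, 15.51 and 15.29 and NTG vehicle arrays 15.39, 15.35 and 15.49. TG vehicle hearts were thus the high group, above each of the other 9. The difference was −0.48 ± 0.17 in TG tamoxifen against TG vehicle (limma adjusted p 0.0692) and 0.50 ± 0.17 in TG vehicle against NTG vehicle (adjusted p 0.0989), neither called. With 1 mean per gene, tested over genes, the first had an adjusted p of 0.0451. The 3 probe sets annotated to both Bnip3l and Bnip3l-ps differed by −0.33, −0.14 and −0.09 in TG tamoxifen against TG vehicle, none called and all overlapping.

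The promoters of Mcl1, Bcl2l11 and Bnip3 are shown because all TG tamoxifen arrays lay below all TG vehicle arrays on at least 1 probe set of each. Bnip3 was not called, and no tested probe set of Bcl2l1, which had the most negative difference, separated in this way. Each is the 250 bases before a RefSeq start on GRCm38.p6, read 5′ to 3′ on the gene's strand. Capitals mark CCAAT or ACGTG on either strand, where ATTGG and CACGT are the opposite-strand forms. The Mcl1 window is chr3:95658471-95658720 on the plus strand, the Bcl2l11 windows are chr2:128125788-128126037 and chr2:128127325-128127574 on the plus strand, and the Bnip3 window is chr7:138909507-138909756 on the minus strand.
Mcl1: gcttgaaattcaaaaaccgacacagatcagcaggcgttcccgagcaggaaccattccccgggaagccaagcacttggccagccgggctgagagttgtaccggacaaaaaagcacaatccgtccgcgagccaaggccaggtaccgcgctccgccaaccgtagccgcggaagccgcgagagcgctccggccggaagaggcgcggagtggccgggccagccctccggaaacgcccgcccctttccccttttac
Bcl2l11 window 1: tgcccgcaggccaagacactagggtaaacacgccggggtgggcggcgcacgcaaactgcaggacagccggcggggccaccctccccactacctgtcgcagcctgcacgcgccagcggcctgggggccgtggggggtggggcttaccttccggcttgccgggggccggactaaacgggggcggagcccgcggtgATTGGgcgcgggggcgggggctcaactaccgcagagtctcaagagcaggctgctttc
Bcl2l11 window 2: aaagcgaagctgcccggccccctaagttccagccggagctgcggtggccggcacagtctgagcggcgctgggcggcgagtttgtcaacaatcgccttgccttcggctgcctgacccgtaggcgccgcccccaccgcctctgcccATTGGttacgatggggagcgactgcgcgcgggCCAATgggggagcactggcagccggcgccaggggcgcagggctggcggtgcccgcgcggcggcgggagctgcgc
Bnip3: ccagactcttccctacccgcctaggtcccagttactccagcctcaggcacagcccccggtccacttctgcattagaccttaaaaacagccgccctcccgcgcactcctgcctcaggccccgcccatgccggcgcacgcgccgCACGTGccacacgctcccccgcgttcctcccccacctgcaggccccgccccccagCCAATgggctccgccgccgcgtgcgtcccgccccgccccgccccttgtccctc

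In the 13 RefSeq promoter windows of the 8 genes with their own probe sets, 250 bases before to 50 after the start, several motifs were looked for on both strands. The ER stress element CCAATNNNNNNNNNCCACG, the ATF6 core TGACGTG and the ATF4 and CHOP core TGATGNAA matched in 0 of the 13. They matched in 0.119%, 2.01% and 3.97% of all 32851 windows. The hypoxia core ACGTG, which is also part of TGACGTG, matched in 2 of the 13, in Bnip3 and Bbc3, against 19.6% of all windows. CCAAT, which is also part of the ER stress element, matched in 4 of the 13 against 37.4% of all. In Bnip3 the ACGTG matches lay at −108 to −104 and −107 to −103 from the start.

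Without the transgene, no probe set of the family was called after tamoxifen. In NTG tamoxifen against NTG vehicle limma called 0 of 21, with 1 at an unadjusted p under 0.05, where 0.693% of all tested probe sets were higher and 3.20% lower. The median difference was 0.03 over the family and 0.02 over all tested probe sets. For Mcl1 1416880_at the difference was 0.21, with a 95% interval of −0.23 to 0.65, and for Bcl2l11 1435448_at it was −0.32, with an interval of −0.79 to 0.15. These NTG comparisons contain NTG tamoxifen 1, which on Mcl1 1437527_x_at read 14.87 where the other NTG tamoxifen arrays read 15.54 and 15.76. Without it limma again called 0 of 21, with 0 at an unadjusted p under 0.05, where 2.28% of all were called in either direction.

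The difference between the tamoxifen effects, TG minus NTG, was called for 0 of the 21 by limma, with 6 at an unadjusted p under 0.05, where 6.12% of all tested probe sets were higher and 4.53% lower. Closest to the threshold were Mcl1 1416880_at at −0.97 ± 0.29 (adjusted p 0.0506), Bcl2 1457687_at at 1.66 ± 0.52 (0.0614) and Bcl2l1 1420887_a_at at −1.92 ± 0.64 (0.0720). With 1 mean per gene, tested over genes and added after the values were seen, Bcl2l1 was past the threshold at −1.17 ± 0.34 (limma adjusted p 0.0401). That mean includes NTG tamoxifen 1 and was not refitted without it. Neither tested probe set of Bcl2l1 was called with or without this array. For 1420887_a_at the difference was −1.92 with it and −1.95 without (limma adjusted p 0.072 and 0.08). For 1420888_at it was −0.43 and −0.34 (0.24 and 0.319). Without NTG tamoxifen 1, 6 of 21 were called, where 18.5% of all were called in either direction. These were 4 Mcl1 probe sets and Bcl2l11 1456005_a_at, more negative in TG, and Bcl2 1457687_at, more positive. Mcl1 1456243_x_at then differed by −1.03 ± 0.21 (limma adjusted p 0.00893), against −0.76 ± 0.31 (adjusted p 0.127) with the array. A share of 6 in 21 lies above that background, but 4 of the 6 read Mcl1.

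**Figure D5:**
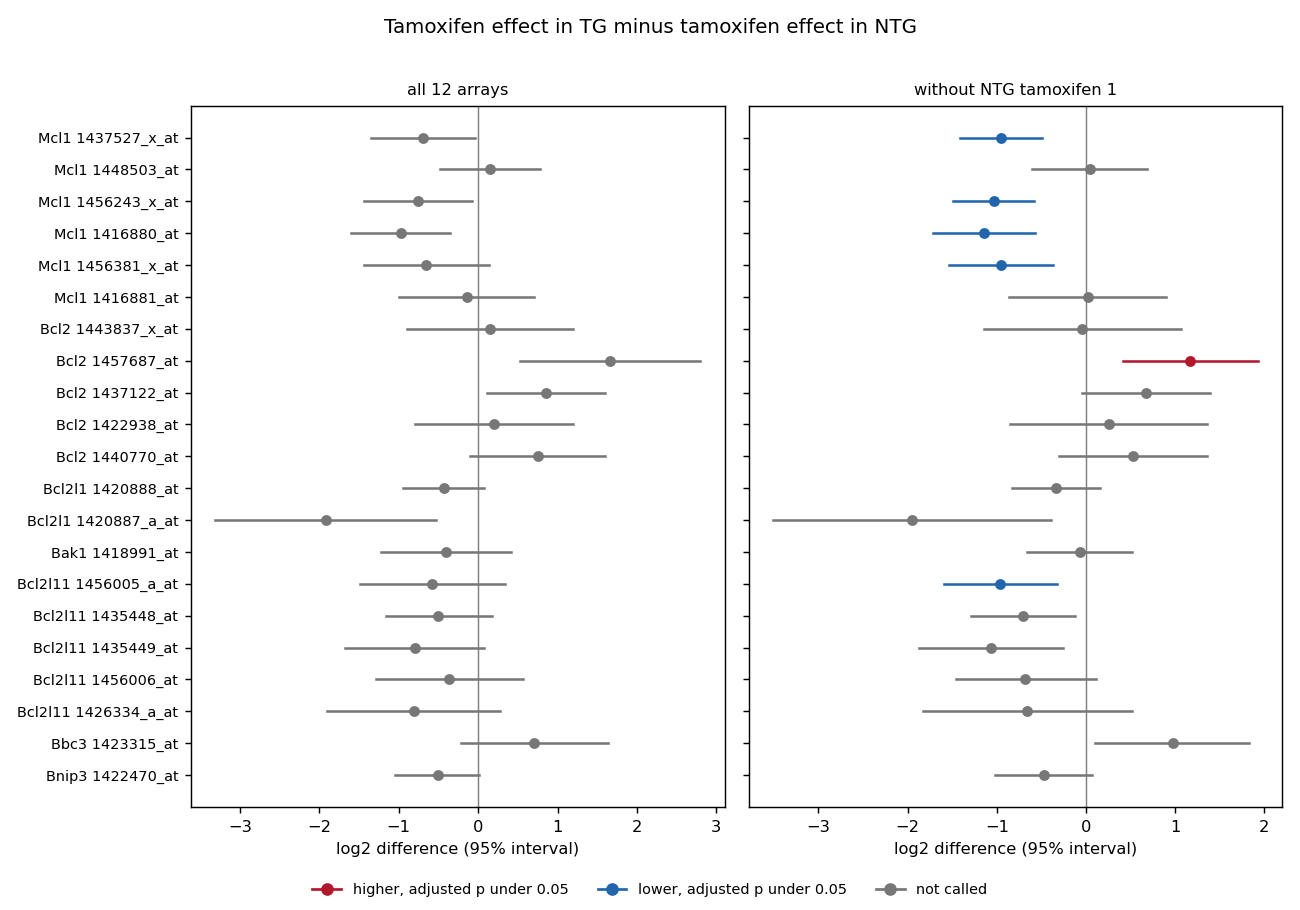
Tamoxifen effect in TG minus tamoxifen effect in NTG, log2 difference with its 95% interval, for each tested probe set of the family, with all 12 arrays and without the library labelled NTG tamoxifen 1. With all arrays 0 of 21 are called and without that array 6 are, among them Mcl1 1456243_x_at at −1.03.

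The genotype comparisons called the family at about the share of all probe sets. In TG tamoxifen against NTG tamoxifen 2 of 21 probe sets (9.52%) were higher and 6 (28.6%) lower, where 18.4% of all tested probe sets were higher and 19.1% lower. In either direction that is 38.1% of the family and 37.5% of all, so nothing about the family as a whole is read from these counts. Mcl1 1416880_at fell by 1.09 ± 0.20 (limma adjusted p 0.00195) and Bcl2l11 1456005_a_at by 1.22 ± 0.29 (0.00743). Bcl2l1 fell on both of its tested probe sets, by 1.43 ± 0.45 on 1420887_a_at and by 0.49 ± 0.17 on 1420888_at (limma adjusted p 0.0268 and 0.0360). Without TG tamoxifen 3, the low array on 1420887_a_at, its difference was −0.82 and the call was lost (adjusted p 0.0779), as it was without NTG tamoxifen 3 (−1.23, 0.0958). The call for 1420888_at was lost without any 1 TG tamoxifen array, NTG tamoxifen 1 or 2, or NTG vehicle 1 or 2, with differences of −0.53 to −0.40. Bbc3 rose by 0.92 ± 0.30 (0.0306), a call lost without any 1 TG tamoxifen array or NTG tamoxifen 2 or 3, with differences of 0.77 to 0.97.

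The Bcl2 probe sets disagreed in sign in TG tamoxifen against NTG tamoxifen. 1457687_at rose by 1.21 ± 0.37 (limma adjusted p 0.0226), while the other 4 had differences of −0.79, −0.51, −0.24 and −0.14, none called. NTG tamoxifen 1 read 8.62 on 1457687_at, the lowest of the 12 arrays, and without it the difference was 0.72 ± 0.26 (adjusted p 0.0451). Without that array 1437122_at was called lower, at −0.69 ± 0.24 (adjusted p 0.0426). The call for 1457687_at was lost without TG tamoxifen 1 or 2 (1.16 and 1.20, adjusted p 0.0653 and 0.0580). These groups share their TG tamoxifen arrays with the first comparison, so the agreement of sign for Mcl1 and Bcl2l11 is not independent. Without NTG tamoxifen 1, 13 of 21 were called, of 6 genes, 2 higher and 11 lower, where 40.4% of all were called. A share of 13 in 21 lies above that background, but several of these probe sets read the same gene. Bcl2l1 1420888_at (−0.40 ± 0.17, limma adjusted p 0.0836) was no longer among the called. Leaving out TG tamoxifen 2 instead left 4 of 21.

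In TG vehicle against NTG vehicle 1 of 21 (4.76%) was lower, Bcl2 1437122_at, and 0 were higher. Of all tested probe sets 2.92% were lower and 3.19% higher. In either direction that is 4.76% of the family and 6.11% of all. Bcl2 1440770_at read 8.75, 8.90 and 8.88 in TG vehicle against 9.45, 10.30 and 9.76 in NTG vehicle, without overlap, and its difference of −0.99 ± 0.28 had a limma adjusted p of 0.0558. All 5 Bcl2 probe sets had negative differences. Without NTG tamoxifen 1 in the fit, 3 of 21 were called, all lower (both of these and Bak1), where 9.72% of all were called. The call for 1437122_at was lost without TG vehicle 3 or NTG vehicle 2 or 3, when 0 of 21 were called.

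Around the family, other members were mostly not called in TG tamoxifen against TG vehicle. Genes stand here by their highest probe set, and 8.76% of 11165 tested genes were higher and 12.4% lower. Of 4 other multidomain members 1 fell, Bcl2l13, a mitophagy receptor. It read 12.04, 11.76 and 11.85 in TG tamoxifen against 12.49, 12.53 and 12.39 in TG vehicle, a difference of −0.59 ± 0.18 (limma adjusted p 0.0398). Of 6 other BH3-only or BNIP genes limma called 0, with 0 at an unadjusted p under 0.05. Bnip2 was higher in TG vehicle than in NTG vehicle by 0.61 ± 0.15 (adjusted p 0.0408).

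Downstream, 1 of 14 genes of the mitochondrial death machinery changed: Endog, a nuclease of the mitochondrial intermembrane space, fell by 1.80 ± 0.29 on the log2 scale (limma adjusted p 0.00357). Limma called 0 of 4 caspase inhibitors and 0 of 8 death receptor genes, with 0 in each at an unadjusted p under 0.05. Of 16 mitophagy genes 3 fell and 0 rose: Mfn2 by 0.68 ± 0.15 and Mfn1 by 0.77 ± 0.19, the mitofusins, and the kinase Pink1 by 0.67 ± 0.19 (limma adjusted p 0.0130, 0.0182 and 0.0322).

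Upstream, 3 of 19 regulators and partners of the family rose and 1 fell. Stat3, which can induce Mcl1 and Bcl2l1, rose by 1.18 ± 0.25 (limma adjusted p 0.0101), and Ywhaz, a 14-3-3 protein that holds Bad in the cytosol, by 1.0 ± 0.23 (0.0136). Foxo3, a transcription factor known to induce Bcl2l11 and Bnip3, fell by 1.24 ± 0.30 (0.0161). Of 13 ER stress death genes 5 rose and 1 fell. Eif2ak3, the kinase PERK, rose by 1.96 ± 0.29, Ddit3 by 2.08 ± 0.40 and Atf4 by 2.07 ± 0.42 (adjusted p 0.00276, 0.00675 and 0.00833).

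Of 13 p53 target genes, a list that also holds Bbc3, 5 rose and 0 fell. The nuclease gene Aen rose by 1.29 ± 0.18, the receptor gene Eda2r by 2.79 ± 0.51 and Trp53inp1 by 0.76 ± 0.17 (limma adjusted p 0.00271, 0.00570 and 0.0124). Of 17 hypoxia genes 4 rose and 3 fell: Hif1a rose by 1.15 ± 0.19 and the glycolysis regulator Pfkfb3 by 1.10 ± 0.22, while the oxygen sensor Egln1 fell by 1.0 ± 0.21 (limma adjusted p 0.00406, 0.00764 and 0.0100).

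Markers of several cell types moved with the same comparison. Of 14 tested macrophage and myeloid markers 4 rose, Ccr2, Ptprc and Aif1 among them, and 0 fell. Another 6, C1qa, C1qb, C1qc, Cd163, Csf1r and Adgre1, had differences of −0.58 to −0.18, none called. The summed intensity of the 14 was 130000 to 188000 in TG tamoxifen hearts against 78400 to 160000 in TG vehicle hearts. Of 11 endothelial markers 5 fell, with sums of 51500 to 55700 in TG tamoxifen against 65400 to 87400 in TG vehicle. Of 12 cardiomyocyte markers 1 fell, with sums of 2590000 to 2690000 in TG tamoxifen against 2810000 to 2920000 in TG vehicle. Of 9 fibroblast markers 1 rose, Col3a1, and 5 had an unadjusted p under 0.05. Among these Tcf21, Dcn and Dpt differed the other way, by −0.61, −0.64 and −0.55, none called. Limma called 0 of the 4 neutrophil, 1 lymphocyte, 7 smooth muscle and 3 red cell genes tested. At an unadjusted p under 0.05 there were 1, 0, 2 and 0 of those. None of the tested markers is listed at 0, and their part in the results for the family was not tested. The same holds for the beta-actin ratio, with which as a covariate limma called 0 of 21 in TG tamoxifen against TG vehicle, 2 of them at an unadjusted p under 0.05, and 0 of all 22519 probe sets, 4434 of them at an unadjusted p under 0.05.

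For Bak1, Bcl2l11 and Bcl2, each by its highest probe set and chosen by the smallest p of an overall test across the 4 groups, the genes with the most similar pattern over the 12 arrays were looked up. The probe sets were 1418991_at, 1456005_a_at and 1443837_x_at. On 1443837_x_at of Bcl2 the TG tamoxifen and TG vehicle arrays overlapped, with a difference of 0.08 (limma adjusted p 0.894). Similarity was the root mean square difference after each gene was centred and divided by its SD, so smaller values are more alike. Nearest to Bak1 were 2310022B05Rik at 0.274, Tatdn2 at 0.342 and Dcaf5 at 0.370. Nearest to Bcl2l11 were Oxct1 at 0.244, Akap1 at 0.249 and Inppl1 at 0.270. Oxct1, an enzyme of ketone body use, read 16.07, 16.28 and 15.98 on TG tamoxifen arrays, 17.32, 16.93 and 17.08 on TG vehicle arrays, 16.50, 17.89 and 17.64 on NTG tamoxifen arrays and 17.55, 17.68 and 17.71 on NTG vehicle arrays. Like Bcl2l11, it was low on the TG tamoxifen arrays and on NTG tamoxifen 1. Nearest to Bcl2 were Tmcc3 at 0.355, Prdm16 at 0.380 and Cacna1g at 0.413.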

How the data were processed

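RNA of 12 left ventricles was hybridised to 12 arrays. The values the authors deposited are linear intensity values, 1 per probe set and array, with a mean after trimming 2% at each end of 2500.02 on every array. Per the labels, RNA was extracted with RNAzol; the summarisation software is not given in the sources used here. Array medians of the deposited intensities were 648.5 to 833.8, so intensities were quantile normalized and taken as log2(intensity + 16), a scale that understates changes of dim probe sets. Probe sets under the 50th percentile of mean level, an intensity of 671.7, were left out, as were 64 control probe sets of 45101. Of the rest 34945 had 1 symbol, 932 several and 9160 none, and 0 symbols changed when updated through RefSeq.

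Groups were taken from the titles. One limma 3.58.1 fit (R 4.3.3) of 4 group means over 12 arrays, with 8 residual and 3.62 prior degrees of freedom, gave two-sided tests, adjusted by Benjamini-Hochberg over all 22519 probe sets. Each heart had its own array. The number of arrays limits precision, and p-values describe the spread between these 12 hearts. The script was tested on simulated data. A gene of a list stands by its probe set of highest mean, and of each list up to 3 called genes are named, by smallest adjusted p. The members and lists were chosen with earlier results of these data known. Promoter sequences are from RefSeq (GRCm38.p6). Alternatives changed the scaling, offset, filter, moderation, arrays and labels, and used the beta-actin ratio or the replicate number as a term. Bax, and Bnip3l apart from its pseudogene, were not analysed here.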

Additional observations from a re-analysis of the deposited data

Results flagged for a closer look

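With all 12 arrays, no probe set of the family was called by the test of a difference between TG and NTG hearts in the response to tamoxifen, with 6 of 21 at an unadjusted p under 0.05. By the limma interaction term of TG minus NTG, 10.6% of all tested probe sets were called in either direction. Several genes around the family were among them. Those given here are a selection, and nothing is read from their number. Eif2ak3 differed by 1.99 ± 0.41 (adjusted p 0.0173), with 1.96 in TG and −0.03 in NTG hearts. Atf4 differed by 2.49 ± 0.59 (0.0267), with 2.07 in TG and −0.42 in NTG hearts, and Ddit3 by 2.21 ± 0.57 (0.0329), with 2.08 and −0.13 in TG and NTG. Aen differed by 1.28 ± 0.26 (0.0169), with 1.29 in TG and 0.01 in NTG. Hif1a differed by 1.72 ± 0.27 (0.0122), with 1.15 in TG and −0.57 in NTG, and Pfkfb3 by 1.18 ± 0.31 (0.0357), with 1.10 in TG and −0.08 in NTG. Foxo3 differed by −1.69 ± 0.42 (0.0296), with −1.24 in TG and 0.46 in NTG. Endog differed by −1.81 ± 0.40 (0.0216), with −1.80 in TG and 0.01 in NTG. The NTG effects and these differences include the library labelled NTG tamoxifen 1, and no results without it are given for these genes.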

How the results depend on the processing

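The 12 arrays limit every count. Counts are of the 21 probe sets, called at a limma adjusted p under 0.05, unless the alternative changed which were tested. With no filter all 27 were tested. Fewer than 21 were tested with 1 probe set per gene or the filter at the 75th percentile, so those counts are of a smaller number. In TG tamoxifen against TG vehicle the 5 calls became 2 with median centring and 2 with 1 probe set per gene. They became 0 with no filter, with TG vehicle 3 grouped as TG tamoxifen, or with the beta-actin ratio as a covariate. They also became 0 without TG vehicle 3 and TG tamoxifen 1. Leaving out 1 array gave 0 to 6: 0 without TG tamoxifen 1 or 2 or TG vehicle 2, and 6 without NTG tamoxifen 1. In NTG tamoxifen against NTG vehicle the count was 0 under each alternative, except 1 without NTG tamoxifen 2 (0 to 1 over arrays left out). In TG vehicle against NTG vehicle the 1 call became 2 with an intensity trend in eBayes and 0 to 3 over arrays left out. It became 0 with no filter, 1 probe set per gene, TG vehicle 3 regrouped or the beta-actin covariate. It was also 0 with TG vehicle 3 and TG tamoxifen 1 left out. With TG vehicle 3 regrouped, limma called 2 of all tested probe sets between the TG groups and 93 between the vehicle groups. With the beta-actin covariate it called 0 of all in both. In TG tamoxifen against NTG tamoxifen the 8 calls became 3 with no filter and 4 with 1 probe set per gene. They became 5 with only the arrays compared, with TG vehicle 3 regrouped, or with TG vehicle 3 and TG tamoxifen 1 left out. Over arrays left out they were 4 to 13. The interaction's 0 became 1 with median centring, an offset of 64 or the filter at the 75th percentile, 3 with an intensity trend, 3 without TG vehicle 3 and NTG tamoxifen 1 (an alternative added after seeing the data), and 0 to 6 over arrays left out. Where counts were 0, unadjusted p under 0.05 held for 1 to 9 probe sets between the TG groups, 0 to 3 between the NTG groups, 1 to 6 between the vehicle groups and 0 to 8 for the interaction.

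No probe set called in the main fit changed sign under any alternative run. Of the values of probe sets not called there, 21 changed sign between the TG groups and 41 between the NTG groups. Another 14 did between the vehicle groups, 21 between the tamoxifen groups and 18 for the interaction. Of 542 values in TG tamoxifen against TG vehicle, 472 kept their side of the threshold, 61 lost it and 9 gained it. Most values were of probe sets not called in the main fit, and all 61 losses fell on the 5 called. Mcl1 1416880_at stayed called in 16 of 26 alternatives, 1437527_x_at in 12 of 27 and 1456243_x_at in 11 of 26. Bcl2l11 1435448_at stayed called in 18 of 26 and Bcl2 1437122_at in 12 of 25. Median centring gave 2562 higher and 1657 lower probe sets over the whole table in that comparison, against 1924 and 2209 with quantile normalization, and medians of all of 0.06 and −0.03. The same change of scaling gave 98 higher and 1416 lower, against 156 and 720, between the NTG groups (medians −0.12 and 0.02), and 447 and 1205, against 719 and 658, between the vehicle groups (−0.12 and −0.01). Between the tamoxifen groups it gave 4851 and 3366, against 4149 and 4290 (0.05 and −0.05). For the interaction it gave 2404 higher and 468 lower, against 1378 and 1019 (0.17 and −0.06). The causes were not tested, apart from the fewer arrays or more tests that an alternative itself brings.

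The replicate numbers did not pair the hearts: over 18 same-numbered pairs the deviations correlated at −0.0981 to 0.120, with 1 over 0.1. With the replicate number as a block, 3 probe sets were called between the TG groups, 0 between the NTG groups, 2 between the vehicle groups, 6 between the tamoxifen groups and 0 for the interaction.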
